A study of Mus musculus with 9 samples.

Results

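Integrin subunits of peptide-activated CD8 T cells were compared between clone R7-II and the clones R7-I and R7-III. The genes were chosen by name, with earlier results of these data known: Itga4, Itgb7, Itgb1, Itgal, Itgb2, Itgae, Itgav, Itgb3 and Itga6. These are 9 of the 24060 genes of the expression table and 9 of the 26 integrin subunit genes looked up in it. The gene lists further below were also chosen with those results known. RNA had been sequenced from 9 libraries, 3 labelled biological replicates per clone, and all 9 integrin genes passed the filter that kept 11330 genes for testing. Each clone came from its own transnuclear mouse line on a BALB/c background that is Rag2 proficient, in which the T cells carry the receptor of the CD8 T cell whose nucleus founded the line. Every line is thus a model of 1 T cell receptor, and line and receptor cannot be told apart. All 3 receptors bind the same peptide, ROP7 of Toxoplasma gondii, presented by H-2Ld. The labels rank their affinity as R7-I above R7-III above R7-II and their self-reactivity as R7-III above R7-I above R7-II. When the authors measured affinity with membrane-anchored ligand, R7-I and R7-III were similar and R7-II was lower. Splenocytes of each line were kept overnight at 37 °C in IL-2 at 10 ng/ml with ROP7 peptide at 10 µM, so no library of resting cells enters these comparisons, and live CD3+ CD8+ cells that bound the H-2Ld-Rop7 tetramer were sorted.

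Integrins are adhesion receptors built from an alpha and a beta chain, and the pairing decides the ligand. On T cells LFA-1 (Itgal with Itgb2) binds ICAMs and holds the synapse with the presenting cell, VLA-4 (Itga4 with Itgb1) binds VCAM-1 and fibronectin on inflamed endothelium, the integrin of Itga4 with Itgb7 binds MAdCAM-1 of gut venules, and that of Itgae (CD103) with Itgb7 binds E-cadherin of epithelium. The Itgae product marks many tissue-resident memory cells. Chains compete for partners in the cell, so a transcript level is not a surface level, and surface protein was not measured in these files.

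Expression is given in TPM, a unit corrected for transcript length and scaled so that every library has the same sum. The read number behind a library cannot be recovered from it, so no counting interval is given. Between 13738 and 14434 genes had a TPM above 0 per library, and Pearson correlations over genes were 0.992 to 0.997 within a clone. The markers of other cells were not at the same level in all clones. Summed over 8 B cell genes, led by Cd79b, Cd79a and Ms4a1, expression was 36.3 to 74.6 TPM in the R7-II libraries, 8.61 to 15.7 TPM in R7-I and 5.23 to 7.88 TPM in R7-III. For 7 MHC class II genes, led by Cd74, H2-Aa and H2-Ab1, the ranges were 112.5 to 183, 32.4 to 50.3 and 24.3 to 28.1 TPM, and for 10 myeloid genes, led by Lyz2, Mpeg1 and Tyrobp, 22.45 to 85.8, 2.18 to 3.57 and 3.48 to 5.44 TPM, in the same order. All 8 B cell genes, 6 of 7 MHC class II genes and 8 of 10 myeloid genes were higher in every R7-II library than in all others, and none of these 25 genes was at 0 throughout. R7-II replicate 2 had the lowest of the 3 R7-II sums in each of these lists. The 10 T cell genes, led by Lck, Zap70 and Cd8b1, summed to 3512 to 3606 TPM in R7-II and to 2565 to 2786 TPM elsewhere. Of these 10 genes, 8 were higher in every R7-II library than in all others, and replicate 2 again had the lowest R7-II sum. The 4 genes of CD4 T cells, led by Cd40lg, Cd4 and Zbtb7b, summed to 4.03 to 5.81 TPM in R7-II. Their sums were 3.36 to 4.11 TPM in R7-I and 5.62 to 8.01 TPM in R7-III. Of these 4 genes, 2 were higher in every R7-II library than in all others, Cd4 (up to 1.00 TPM) and Foxp3 (up to 1.07 TPM). The 4 genes of NK cells (Fcgr3, Klrb1c and Ncr1 leading, Klra8 at 0 in all) summed to 0.61 TPM or less in every library. The plot of marker sums shows how the R7-II libraries stand above the rest for the T cell, B cell, MHC class II and myeloid lists.

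**Figure D1:**
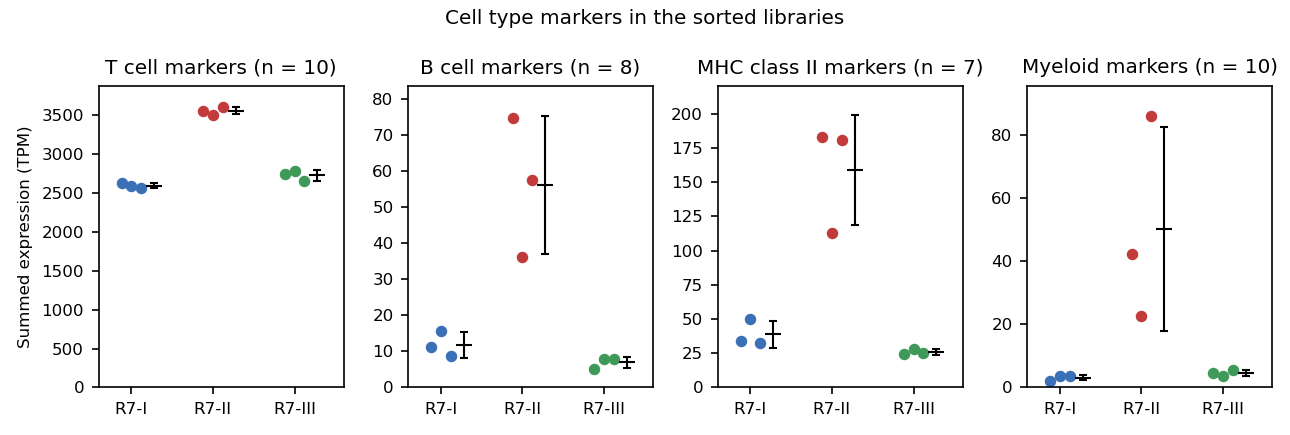
Summed expression (TPM, linear axes from 0) of the T cell, B cell, MHC class II and myeloid marker lists in each library, by clone. Points are libraries, bars are the mean and SD (n = 3); the R7-II libraries lie highest in all 4 panels, with B cell sums of 36.3 to 74.6 TPM.

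With limma on log2(TPM + 1) and an adjusted p of 0.01 over all 11330 genes, the R7-II libraries showed 5 of the 9 integrin genes higher and 2 lower than in R7-I. Such calls were frequent in the whole table, where 56.1% of genes passed, 40.6% higher and 15.5% lower. Against R7-III, 6 were higher and 2 lower, beside 53.6% of all genes, 35.6% higher and 18.0% lower. Between R7-III and R7-I, 1 integrin gene was higher and 0 lower, beside 8.41% of all genes, 6.96% higher and 1.45% lower. By libraries that did not overlap, 5 integrin genes were above and 2 below in R7-II relative to R7-I (71.2% of all genes, 50.6% above and 20.6% below) and 6 above and 3 below relative to R7-III (70.6%, 46.4% and 24.3%). Calls over 2-fold were rarer in the table, at 7.25% of genes for R7-II against R7-I and 7.58% against R7-III. The integrin genes that carry them, in both R7-II comparisons, are Itga4, Itgae, Itgb7 and Itgb3. Between R7-III and R7-I the share was 0.989%, with no integrin gene among them. The median log2 fold change of the 9 genes was 0.26 relative to R7-I and 0.54 relative to R7-III, beside 0.17 and 0.12 over all genes. TPM values depend on the total they are scaled to. With median-of-ratios scaling, in which each library is divided by its median ratio to the geometric mean of all libraries, the median of all genes came close to 0, with 4 integrin genes higher and 3 lower against R7-I and 5 higher and 3 lower against R7-III. Of all genes called at that scaling, 46.1% and 46.8% were higher in R7-II, beside 72.4% and 66.45% on the TPM scale. Both comparisons share the R7-II libraries. In bulk RNA of sorted cells, fewer cells that express a gene and less RNA per cell cannot be told apart, here and in all that follows.

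The genes of the beta 7 integrins were highest in R7-II. Itgb7, which encodes the beta chain shared by the receptors for MAdCAM-1 and E-cadherin, was at 110.12, 88.26 and 107.93 TPM in the R7-II libraries. It was at 13.26, 13.96 and 12.48 TPM in R7-I and at 17.29, 17.64 and 19.59 TPM in R7-III. The 3 clones did not overlap, and R7-III lay between R7-I and R7-II, much nearer to R7-I. Mean Itgb7 expression in R7-II was 7.72-fold that of R7-I and 5.62-fold that of R7-III, with log2 fold changes of 2.85 and 2.42 (standard error 0.0839, adjusted p = 1.09e-08 and 3.28e-08 from limma).

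Itgae, the alpha chain CD103, was at 55.57, 40.97 and 61.31 TPM in R7-II. The R7-I libraries had 10.69, 8.91 and 13.64 TPM and those of R7-III 6.81, 7.66 and 6.94 TPM of Itgae. Every R7-II library was above the others, and R7-I was the most variable of the other clones in relative terms. Mean Itgae in R7-II was 4.75-fold that of R7-I and 7.37-fold that of R7-III (log2 fold changes 2.15 and 2.70, standard error 0.156, adjusted p = 1.03e-06 and 2.46e-07 from limma).

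Itga4, the alpha chain of VLA-4 and of the MAdCAM-1 receptor, was much less abundant. Its values were 16.79, 10.16 and 17.11 TPM in the R7-II libraries, 4.38, 3.85 and 3.66 TPM in those of R7-I and 2.82, 2.76 and 2.68 TPM in those of R7-III. R7-II replicate 2 lay below its group but above all 6 other libraries. In R7-II, Itga4 thus had a log2 fold change of 1.63 over R7-I and 2.03 over R7-III (limma, standard error 0.160, adjusted p = 8.27e-06 and 1.83e-06). The last exon bases of Itga4 overlap the antisense gene Cerkl, with 1124 of 13978 exon bases shared and reads that keep no strand, but Cerkl was listed at 0.07 to 0.75 TPM. Inside Itgae lies the antisense gene Haspin (Gsg2 in the table), at 6.33 to 10.32 TPM, which shares 0 exon bases with it.

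Itgb7, Itgae and Itga4 were highest in R7-II, as were the sums of the B cell, MHC class II, myeloid and T cell markers. R7-II replicate 2 was lowest of its group in all of these, with T cell sums of 3564, 3512 and 3606 TPM in replicates 1 to 3. This order was thus not limited to markers of other cells. Between R7-III and R7-I the mean of Itgb7 was higher in R7-III (18.2 and 13.2 TPM). The myeloid sum (4.51 and 3.08 TPM) and the T cell sum (2729 and 2598 TPM) were higher there as well. The means of Itgae (7.14 and 11.1 TPM) and Itga4 (2.75 and 3.96 TPM) were lower in R7-III. So were the B cell sum (6.99 and 11.9 TPM) and the MHC class II sum (25.9 and 38.8 TPM). The part of other cells in these values was not tested. Without R7-II replicate 2 the number of integrin genes called against R7-I was 7, the same as with it. The R7-II libraries that remain are those with the higher marker sums, so this count cannot speak to the part of other cells. The RefSeq promoter sequences used here matched 4 of the 9 genes, a pair that was higher and a pair that was lower in R7-II. These sequences are printed to show what lies before genes that differed in opposite directions. They are the 250 bases before the start on build GRCm38.p6, read 5′ to 3′ on the gene's strand. Itga4 is at chr2:79255176-79255425 (plus strand), Itgb7 at chr15:102231936-102232185 (minus), Itgb1 at chr8:128685404-128685653 (plus) and Itgav at chr2:83724147-83724396 (plus). The starts used for Itgb7 and Itgav lie inside the annotated gene, since both genes have an outer start as well. Capitals mark CACCC or, for a match on the other strand, GGGTG, the letters bound by Krüppel-like factors such as Klf2.

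Itga4: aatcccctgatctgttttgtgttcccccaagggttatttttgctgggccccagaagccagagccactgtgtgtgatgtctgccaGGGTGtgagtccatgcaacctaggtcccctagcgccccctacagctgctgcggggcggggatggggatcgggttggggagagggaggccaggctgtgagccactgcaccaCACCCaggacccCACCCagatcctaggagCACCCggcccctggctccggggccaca
Itgb7: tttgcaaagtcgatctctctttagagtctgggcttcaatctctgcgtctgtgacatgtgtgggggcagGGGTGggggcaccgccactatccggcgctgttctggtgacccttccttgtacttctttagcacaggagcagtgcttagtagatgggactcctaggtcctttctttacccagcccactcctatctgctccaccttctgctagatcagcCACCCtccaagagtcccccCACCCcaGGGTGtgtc
Itgb1: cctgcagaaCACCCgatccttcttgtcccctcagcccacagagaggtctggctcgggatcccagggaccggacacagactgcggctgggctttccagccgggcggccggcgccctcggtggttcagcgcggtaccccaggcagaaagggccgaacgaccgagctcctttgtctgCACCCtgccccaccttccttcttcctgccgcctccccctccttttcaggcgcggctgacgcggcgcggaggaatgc
Itgav: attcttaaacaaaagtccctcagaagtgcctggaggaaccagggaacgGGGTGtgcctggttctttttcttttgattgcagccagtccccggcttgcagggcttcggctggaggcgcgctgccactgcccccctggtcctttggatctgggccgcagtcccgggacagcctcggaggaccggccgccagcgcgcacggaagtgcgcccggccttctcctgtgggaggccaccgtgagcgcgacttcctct

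The windows of Itga4 and Itgb7 each held 4 matches to CACCC on either strand, that of Itgb1 held 2 and that of Itgav held 1. Of 32851 RefSeq promoter windows of the same length, 52.0% held at least 1 match, 21.1% at least 2 and 2.14% at least 4. In Itga4 the matches began 166, 56, 44 and 27 bases before the start, and in Itgb7 182, 35, 16 and 9 bases before it. The letters TGTGGT of Runx factors were found once among the 4 windows, in Itga4, where they overlap the CACCC at 56 bases (14.0% of all windows hold them). The T-box letters AGGTGT were in none of the 4 (11.8% of all windows). The Smad letters CAGAC matched 1 time in Itga4, 2 times in Itgb7 and 3 times in Itgb1 and not in Itgav (42.2% of all windows), and the Sp1 letters GGGCGG matched 1 time each in Itga4 and Itgb1 (32.7% of all windows). These counts describe letters in a window, and no binding was measured.

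**Figure D2:**
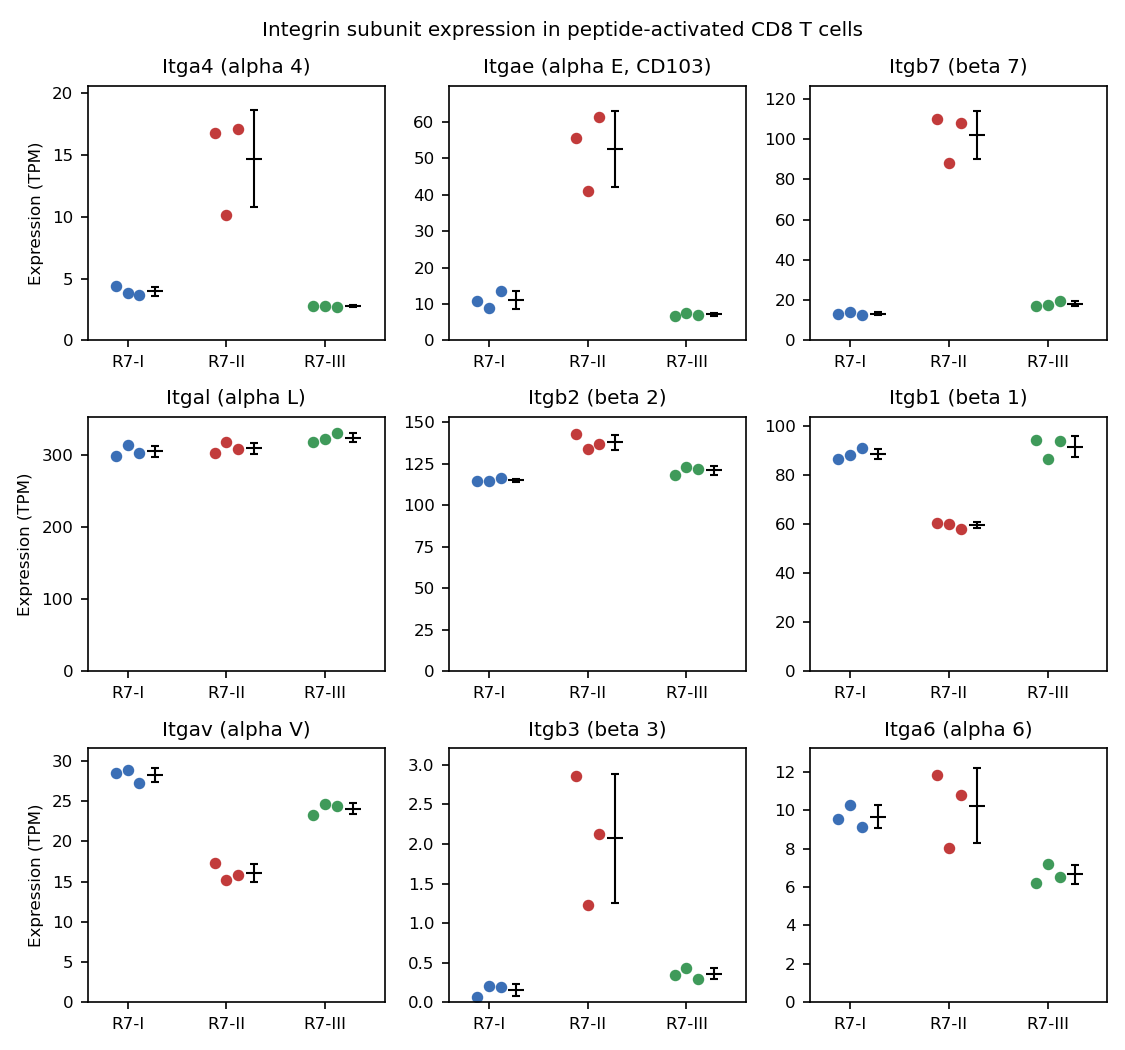
Expression (TPM, linear axes from 0) of the 9 integrin subunit genes in each library of the 3 clones, with mean and SD (n = 3) beside the points. Itga4, Itgae, Itgb7 and Itgb3 are highest in R7-II (Itgb7 mean 102 TPM), Itgb1 and Itgav lowest, and Itgal is at 299 to 332 TPM in every library.

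The beta 1 chain differed in the other direction. Itgb1, the common beta chain of the VLA integrins, was at 60.55, 60.02 and 58.18 TPM in the R7-II libraries, 86.66, 88.07 and 90.81 TPM in those of R7-I and 94.16, 86.61 and 93.89 TPM in those of R7-III. All R7-II libraries were below all others, while R7-I and R7-III overlapped. In limma Itgb1 differed by -0.56 from R7-I and by -0.61 from R7-III on the log2 scale (standard error 0.0401, adjusted p = 9.16e-07 and 5.14e-07).

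Itgav, the alpha chain of receptors for vitronectin and for latent TGF-beta, was also lowest in R7-II. It was at 17.38, 15.17 and 15.79 TPM in the R7-II libraries, 28.52, 28.94 and 27.24 TPM in those of R7-I and 23.25, 24.60 and 24.42 TPM in those of R7-III. No library of one clone overlapped those of another. The log2 fold changes were -0.77 and -0.55 (standard error 0.0569, adjusted p = 1.13e-06 and 1.20e-05 from limma). Under median-of-ratios scaling Itgb1 and Itgav kept their direction and were further from 0, at -0.75 and -0.95 against R7-I.

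Itga6, the alpha chain of a laminin receptor, was at 11.82, 8.04 and 10.80 TPM in the R7-II libraries, 9.56, 10.28 and 9.10 TPM in those of R7-I and 6.23, 7.22 and 6.53 TPM in those of R7-III. R7-II overlapped R7-I and stood above R7-III. The log2 fold change against R7-I was 0.06 (95% confidence interval -0.20 to 0.32, adjusted p = 0.656 from limma) and turned to -0.11 under median-of-ratios scaling, to -0.26 under quantile scaling and to -0.04 without R7-II replicate 1. Against R7-III it was 0.54 (standard error 0.118, adjusted p = 0.00219 from limma). This call was lost under quantile scaling (adjusted p = 0.0167) and without R7-III replicate 1 (0.0105), in a range from 6.85e-05 to 0.0167 over all alternatives.

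The genes of LFA-1 had the highest levels of the 9 in every clone. Itgal, the alpha L chain, was at 302.75, 318.03 and 308.25 TPM in the R7-II libraries, 299.32, 314.00 and 303.57 TPM in those of R7-I and 318.95, 322.60 and 331.57 TPM in those of R7-III. R7-II overlapped R7-I and lay below R7-III by less than 1 TPM at the nearest pair of libraries. On the TPM scale the log2 fold change of Itgal in R7-II was 0.02 relative to R7-I (95% confidence interval -0.05 to 0.08, adjusted p = 0.588 from limma) and -0.07 against R7-III (adjusted p = 0.0683), while median-of-ratios scaling gave -0.17 and -0.20 (adjusted p = 0.00284 and 0.00101). The range of adjusted p over all alternatives was 0.00284 to 0.993 against R7-I and 0.00101 to 0.729 against R7-III.

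Itgb2, the beta chain of LFA-1 and of the leukocyte integrins of myeloid cells, was at 142.96, 133.67 and 136.56 TPM in the R7-II libraries, 114.37, 114.62 and 116.09 TPM in those of R7-I and 118.00, 122.85 and 122.02 TPM in those of R7-III. The R7-II libraries were above all others by a small step. The log2 fold changes were 0.26 and 0.19 (standard error 0.0327, adjusted p = 5.13e-05 and 5.32e-04 from limma). Both calls for Itgb2 were lost under median-of-ratios scaling, at 0.07 and 0.05 (adjusted p = 0.0295 and 0.0888, the highest over all alternatives).

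Itgb3, the beta chain that pairs with Itgav in the vitronectin receptor and with Itga2b in platelets, was near the lower end of the table. It was listed at 2.86, 1.23 and 2.13 TPM in the R7-II libraries, 0.07, 0.21 and 0.19 TPM in those of R7-I and 0.35, 0.44 and 0.30 TPM in those of R7-III. R7-II libraries were above all others, and the others were under 1 TPM. Mean Itgb3 in R7-II was 13.2-fold that of R7-I and 5.71-fold that of R7-III. The log2 fold changes of Itgb3 were 1.38 and 1.14 (standard error 0.184, adjusted p = 7.29e-05 and 2.96e-04 from limma), and on this scale they understate the change of a gene so low. Of 8 platelet genes, 7 did not exceed 1 TPM in any library and Ppbp and Treml1 were at 0 in all of them; the list, led by Itga2b, Gp1ba and Gp9, summed to 2.58 to 3.40 TPM in R7-II and to 1.08 to 1.54 TPM elsewhere. Like the B cell, MHC class II, myeloid and T cell sums, Itgb3 was highest in R7-II and lowest within it in replicate 2. Its highest library was R7-II replicate 1, as for the B cell and MHC class II sums. The myeloid and T cell sums were highest in replicate 3. The part of other cells in Itgb3 was not tested.

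**Figure D3:**
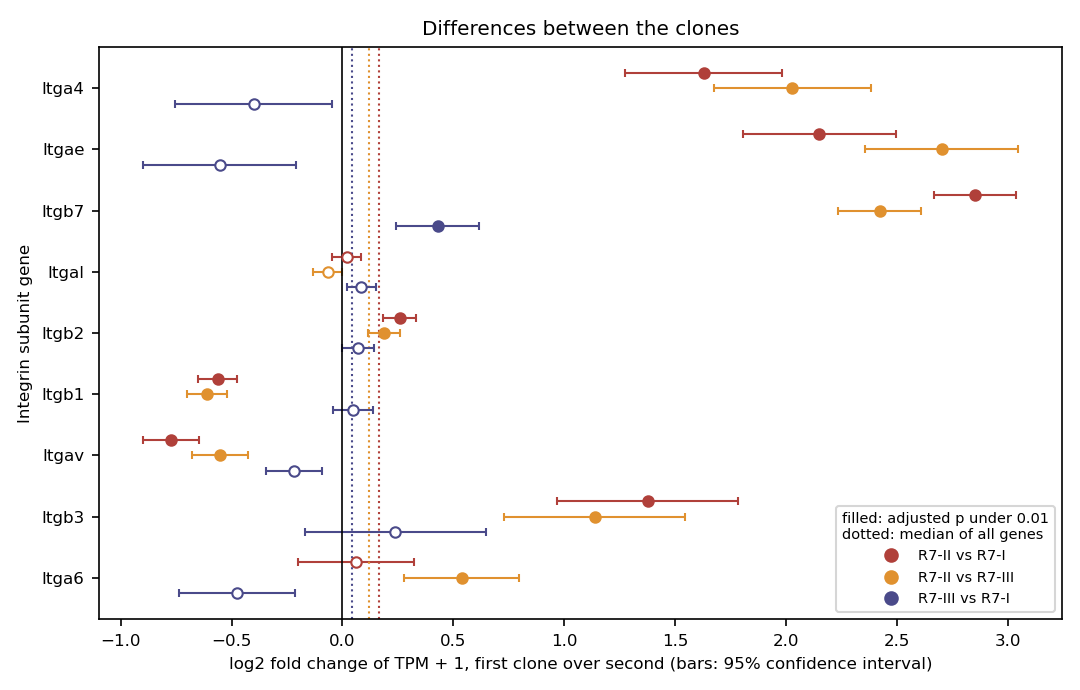
Log2 fold change of TPM + 1 from limma for the 9 integrin genes in the 3 comparisons, with 95% confidence intervals. Filled points have an adjusted p under 0.01 and dotted lines mark the median of all 11330 genes; Itgb7, Itgae and Itga4 are at 1.63 or higher in both R7-II comparisons and Itgb1 and Itgav below 0.

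R7-III and R7-I were much more alike. Itgb7 was the integrin gene that passed between them, at 18.2 ± 1.24 TPM in R7-III and 13.2 ± 0.740 TPM in R7-I (mean ± SD, n = 3), with a log2 fold change of 0.43 (95% confidence interval 0.24 to 0.61) and an adjusted p of 0.00603 from limma. That call sat close to the threshold. It was lost with a pseudocount of 5 (adjusted p = 0.0117), without the filter (0.0170), with quantile scaling (0.0230), without the trend (0.0167), with the replicate block (0.0124) and without any R7-I or R7-III library (0.0128 to 0.0265), in a range from 0.00105 to 0.0265. The libraries of 4 integrin genes were higher in R7-III without overlap and those of 4 were lower, beside 41.9% of all genes, 29.5% higher and 12.4% lower. The 4 lower genes were Itga4, Itgae, Itgav and Itga6, all alpha chains.

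Their log2 fold changes in R7-III were -0.40 for Itga4, -0.55 for Itgae, -0.22 for Itgav and -0.48 for Itga6, with adjusted p of 0.110, 0.0320, 0.0224 and 0.0188 from limma, none under 0.01. Itgav and Itga6 passed under median-of-ratios scaling (adjusted p = 0.00409 and 0.00899, over all alternatives 0.00409 to 0.0880 and 0.00224 to 0.0690). Itga4 passed without R7-II replicate 2 (adjusted p = 0.00571, over all alternatives up to 0.284), and Itgae passed in no alternative (0.0121 to 0.102). The interval of the difference was -0.04 to 0.14 for Itgb1, which turned to -0.01 under median-of-ratios scaling, 0.02 to 0.15 for Itgal and -0.17 to 0.65 for Itgb3.

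The order of levels, which TPM allows across genes of different length, differed in R7-II. In R7-I and R7-III it ran from Itgal through Itgb2, Itgb1, Itgav, Itgb7, Itgae, Itga6 and Itga4 to Itgb3. In R7-II it ran from Itgal through Itgb2, Itgb7, Itgb1, Itgae, Itgav, Itga4 and Itga6 to Itgb3, so that Itgb7 stood above Itgb1. Neighbours whose libraries overlapped were Itgb7 with Itgae and Itgae with Itga6 in R7-I, Itgae with Itga6 in R7-III, and Itgb1 with Itgae, Itgav with Itga4 and Itga4 with Itga6 in R7-II.

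Among the 4 beta chains, Itgb7 held 33.8% ± 2.29 of the summed TPM in R7-II, 6.10% ± 0.384 in R7-I and 7.86% ± 0.403 in R7-III (mean ± SD, n = 3). The share of Itgb1 was 19.8% ± 1.204 in R7-II, 40.8% ± 0.493 in R7-I and 39.6% ± 1.47 in R7-III. Itgb2 held 45.7%, 53.0% and 52.4% in the same order, and Itgb3 under 1%. Among the 5 alpha chains, Itgal held 76.8% in R7-II, 85.2% in R7-I and 88.9% in R7-III, and Itgae 13.0%, 3.10% and 1.96%.

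Ratios within a library do not depend on how the libraries are scaled, and 8 of them were compared between the 3 R7-II libraries and the other 6 by an exact two-sided permutation test. The ratio of Itgb7 to Itgb1 was 1.47 to 1.86 in R7-II, 0.137 to 0.159 in R7-I and 0.184 to 0.209 in R7-III. Transcripts of beta 7 thus exceeded those of beta 1 in each R7-II library and in no other. The mean difference was 3.31 on the log2 scale, or 9.91-fold (exact permutation test, p = 0.0238, adjusted p = 0.0381 over 8 ratios), and 0.0238 is the smallest p that 3 against 6 libraries allow. The ratio of Itga4 to Itgb1, the chains of VLA-4, was 0.169 to 0.294 in R7-II and 0.0285 to 0.0505 in the other clones, 6.54-fold higher in R7-II.

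The ratio of Itga6 to Itgb1 was 1.90-fold higher in R7-II. That of Itgal to Itgb2 was lower, with geometric means of 2.25 in R7-II, 2.66 in R7-I and 2.68 in R7-III, and that of Itgav to Itgb3 was 8.22, 200 and 67.1 in that order, although Itgb3 in R7-I is only a few steps of the 2 decimals given. These 3 ratios and that of Itga4 to Itgb1 had the same exact permutation p of 0.0238 (adjusted 0.0381). The ratio of Itgae to Itgb7, the chains of the E-cadherin receptor, did not pass, at 0.464 to 0.568 in R7-II, 0.638 to 1.09 in R7-I and 0.354 to 0.434 in R7-III (difference -0.16 on the log2 scale, exact permutation p = 0.762, adjusted p = 0.762). R7-II lay between the others without overlap. The ratio of Itga4 to Itgb7 was 0.115 to 0.159 in R7-II, 0.276 to 0.330 in R7-I and 0.137 to 0.163 in R7-III (difference -0.60, exact permutation p = 0.143, adjusted p = 0.190), so R7-II overlapped R7-III. For Itgav to Itgb1 the difference was -0.10 (exact permutation p = 0.381, adjusted p = 0.435). Between R7-III and R7-I, where 3 against 3 libraries cannot give a p under 0.1, the log2 difference was -0.98 for Itga4 to Itgb7 and -1.07 for Itgae to Itgb7.

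**Figure D4:**
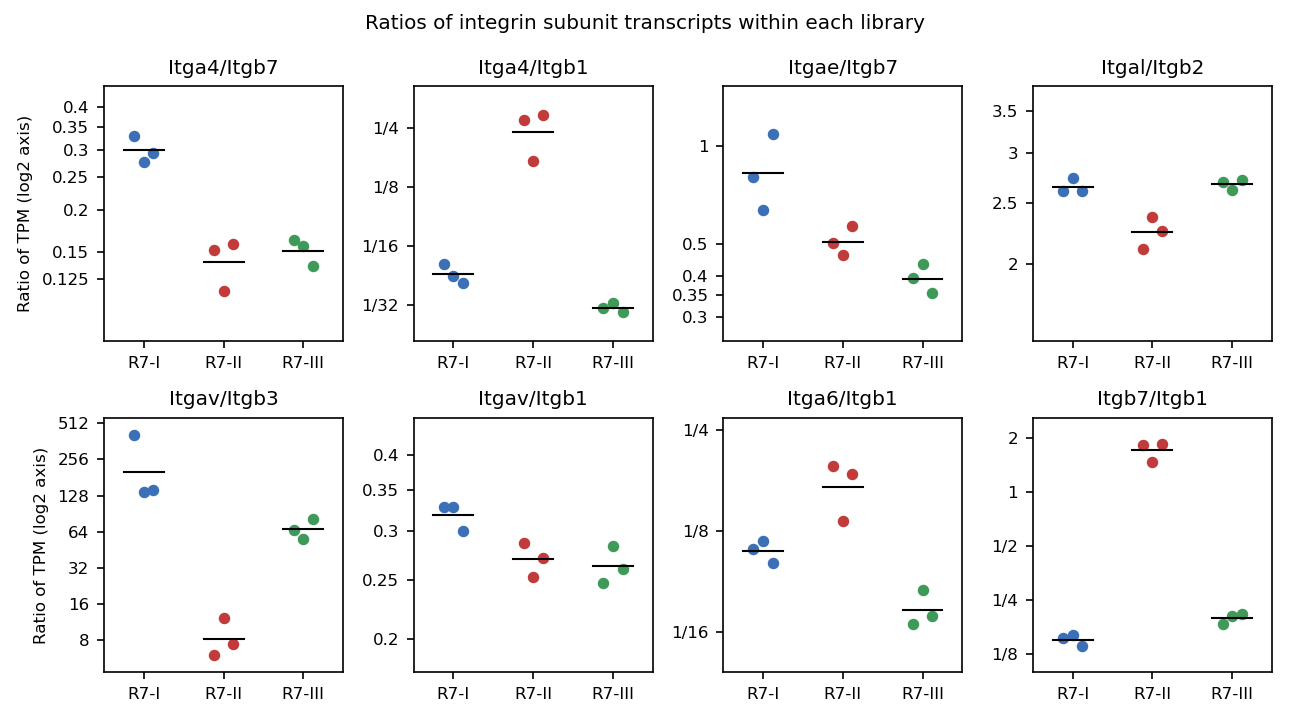
Ratios of TPM between integrin subunit genes within each library (log2 axes), by clone; points are libraries and lines are geometric means (n = 3). Itgb7/Itgb1 is above 1 in the R7-II libraries alone (geometric mean 1.71, against 0.149 and 0.198), while Itgae/Itgb7 of R7-II lies between those of R7-I and R7-III.

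Of the 17 other integrin subunit genes, 5 exceeded 1 TPM in a library. Itga3, Itga5 and Itga10, alpha chains that pair with beta 1, were at 3.47, 5.42 and 1.54 TPM in R7-II and passed in no comparison. Itga2b, the alpha chain of the platelet fibrinogen receptor, was at 2.28 TPM in R7-II, 1.27 in R7-I and 1.03 in R7-III, with log2 fold changes of 0.52 and 0.68 (adjusted p = 0.00632 and 0.00127 from limma), the former lost in 10 of the 17 alternatives that tested it (adjusted p up to 0.290). Itgam, the myeloid partner of Itgb2, was at 0.783, 0.06 and 0.0467 TPM and passed against R7-III with an adjusted p of 0.00971 that most alternatives did not keep.

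Ligand binding needs activation from inside the cell, through Rap1, talin and kindlin. Of 30 genes of this machinery, 27 were tested, with 19 higher and 1 lower in R7-II relative to R7-I, 17 higher and 2 lower relative to R7-III, and 4 higher in R7-III relative to R7-I. Under median-of-ratios scaling the counts were 15 and 4, 16 and 4, and 3 and 1. At that scaling 46.1%, 46.8% and 56.6% of all called genes were higher in these comparisons. The median log2 fold change of the list was 0.35 and 0.40 in the R7-II comparisons, where that of all genes was 0.17 and 0.12. Of all genes, 40.6% and 35.6% were called higher there and 15.5% and 18.0% lower. Between R7-III and R7-I, 6.96% of all genes were called higher and 1.45% lower. Rasgrp2, the calcium-driven exchange factor that loads Rap1, averaged 30.6 TPM in R7-II libraries and 1.38 and 1.99 TPM in those of R7-I and R7-III (log2 fold changes 3.71 and 3.38). Fyb and Skap1, adaptors that carry Rap1 effectors to the membrane, were higher by 1.80 and 1.08 against R7-I and by 1.69 and 0.60 against R7-III. Rasgrp1, Cyth1 and Cyth3 were higher by 1.05, 1.00 and 1.01 against R7-I. Cyth1 and Cyth3 are cytohesins, which bind the beta 2 tail or act on Arf proteins. Rap1b, the Rap1 GTPase itself, was lower in R7-II at 463 ± 20.6 TPM, against 644 ± 22.2 in R7-I and 576 ± 11.7 in R7-III (-0.48 and -0.32). Actn4, an actin crosslinker and the other abundant gene of the list, passed as lower against R7-III (-0.15), and under median-of-ratios scaling also against R7-I (-0.29). Skap1 was also higher in R7-III than in R7-I (0.47, adjusted p = 5.29e-04 from limma).

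Other genes restrain integrins or link them to the cell. Of 14 such genes listed, 12 were tested, with 8 higher and 0 lower against R7-I, 7 higher and 0 lower against R7-III, and 0 called between R7-III and R7-I. Under median-of-ratios scaling the counts were 7 and 1, 7 and 2, and 0, where 46.1% and 46.8% of all called genes were higher in R7-II. On the TPM scale the median log2 fold change was 0.53 and 0.47 in the R7-II comparisons, beside 0.17 and 0.12 over all genes. Of all genes, 40.6% and 35.6% were called higher there and 15.5% and 18.0% lower. Between R7-III and R7-I, 8.41% of all genes were called. Rasa3, which turns Rap1 off, was at 58.6 ± 11.02 TPM in R7-II, 14.1 ± 0.734 in R7-I and 17.7 ± 0.836 in R7-III. Dok2, an adaptor that binds beta tails, was at 64.2 ± 4.04, 18.0 ± 0.407 and 22.4 ± 1.85 TPM. Flna, which competes with talin for the beta tail, was higher in R7-II by 0.93 and 0.80 on the log2 scale. Rhoh was higher by 0.73 and 0.71, Pde4d by 0.71 and 0.68 and Sipa1l1 by 0.64 and 0.58. Cd47, which associates with integrins, did not pass at 77.0 TPM in R7-II, 77.3 in R7-I and 80.2 in R7-III, but passed as lower in R7-II under median-of-ratios scaling (-0.19 in both, adjusted p = 0.00716 and 0.00764 from limma). The higher T cell marker sum in R7-II moved with these intracellular genes, and its part was not tested.

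Of 17 ligand genes, 5 exceeded 1 TPM in a library; Vcam1, Madcam1 and Cdh1, which encode the ligands of the VLA-4, beta 7 and CD103 integrins, did not. Icam1, a ligand of LFA-1, was lower in R7-II at 52.3 ± 6.30 TPM, against 92.8 ± 1.31 in R7-I and 91.9 ± 1.48 in R7-III (log2 fold changes -0.82 and -0.81). Icam2, another LFA-1 ligand, was higher at 58.2 ± 3.39, 39.8 ± 0.395 and 45.2 ± 0.573 TPM. Tgfb1, whose latent product is activated by alpha V integrins, was lower in R7-II than in R7-III (-0.29), and under median-of-ratios scaling also than in R7-I (-0.26). It was higher in R7-III than in R7-I (0.22, adjusted p = 0.00316 from limma), a call lost without the trend and without any 1 of R7-I replicates 1 and 2 and the R7-III replicates (up to 0.0176), and Lamc1, a laminin chain, was higher in R7-III than in R7-I (0.39, adjusted p = 0.00962 from limma, lost in 11 of 18 alternatives, with both other scalings, the replicate block and each R7-I or R7-III library left out among them, at up to 0.0974).

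Among 17 genes known to act on integrin genes, all tested, the calls in R7-II were 11 higher and 1 lower relative to R7-I and 10 higher and 1 lower relative to R7-III (10 and 2 in both with median-of-ratios scaling). Over all genes tested, 40.6% and 35.6% were higher and 15.5% and 18.0% lower. With median-of-ratios scaling 46.1% and 46.8% of all called genes were higher. The list's median log2 fold change was 0.52 and 0.53, where that of all genes was 0.17 and 0.12. Between R7-III and R7-I 1 gene passed, Klf3, beside 8.41% of all genes. Klf2, a factor of quiescent T cells that governs trafficking receptors, was at 119.08, 79.33 and 108.15 TPM in R7-II and at 8.40 to 10.0 TPM in the other 6 libraries. Tbx21 (T-bet), which drives effector differentiation, was at 5.25 ± 1.65 TPM in R7-II, 45.6 ± 1.45 in R7-I and 49.7 ± 6.66 in R7-III. Ets1 and Myb, factors of naive lymphocytes, were higher in R7-II by 1.36 and 1.17 against R7-I and 1.25 and 1.05 against R7-III. Smad7, an inhibitor of TGF-beta signalling, was higher by 1.00 and 1.11. Klf3, a repressor related to Klf2 that binds the same letters and acts on Itgb7 in B cells, was at 29.3 ± 5.62, 18.7 ± 0.625 and 10.8 ± 0.391 TPM in R7-II, R7-I and R7-III. It was also lower in R7-III than in R7-I (-0.74, adjusted p = 0.00138 from limma). Runx3, needed for Itgae in CD8 T cells, was at 43.9 ± 1.45, 43.9 ± 1.49 and 45.9 ± 2.29 TPM and did not pass on the TPM scale (adjusted p = 0.991 against R7-I and 0.274 against R7-III from limma), but passed as lower in R7-II under median-of-ratios scaling (-0.18 and -0.19, adjusted p = 0.00764 and 0.00605).

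**Figure D5:**
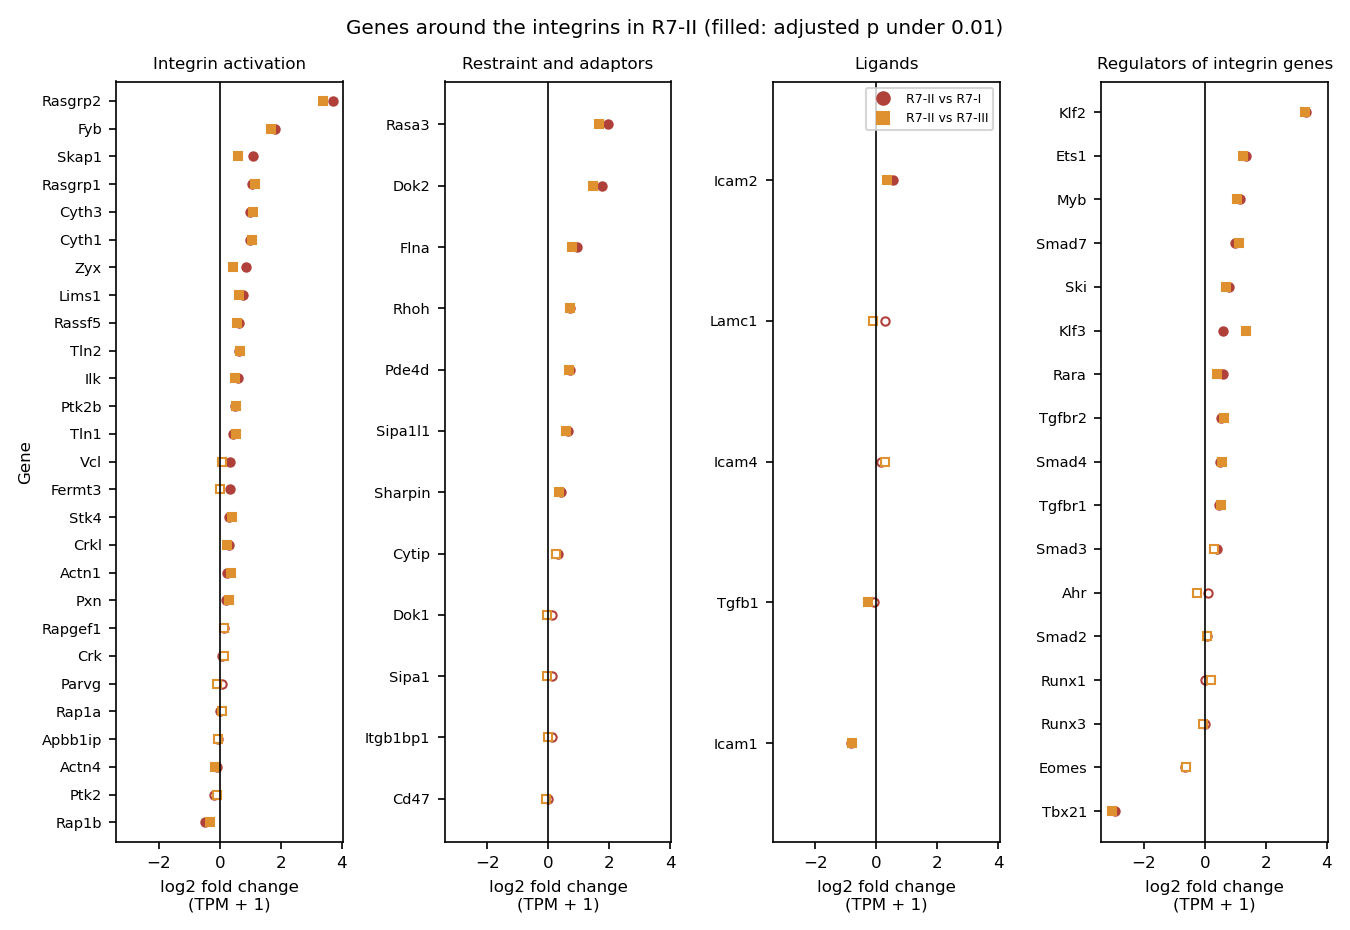
Log2 fold change of TPM + 1 in R7-II against R7-I (circles) and R7-III (squares) for the tested genes of 4 lists around the integrins; filled symbols have an adjusted p under 0.01 from limma. Rasgrp2 (3.71 and 3.38) and Klf2 (3.33 and 3.30) lie furthest to the right, and Tbx21 (-2.93 and -3.05) furthest to the left.

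The genes whose centred log2 profile over the 9 libraries was nearest to an integrin gene are given by the root mean square difference from it, as a description. Nearest to Itgb7 were Gbp8 (0.152), Tnfrsf26 and Ypel3, and nearest to Itgae were Tsc22d3 (0.192), Tmie and Tcp11l2, with Itga4 at rank 29. Nearest to Itga4 were A430078G23Rik (0.114), Pde2a and Sh3bp5. For Itgb1 they were Syde2 (0.0423), Rcc1 and Pgam1, and for Itgav Xcl1 (0.0385), Ehd1 and Pim3, with Itgb1 at rank 82. For Itgb2 they were Sap30bp (0.0173), Faf2 and Phkg2, and for Itgb3 Ndrg2 (0.0834), Nlrc3 and Zfp386. All points of such a profile share the library and its scaling.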

How the data were processed

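Splenocyte-derived, peptide-activated CD8 T cells of 3 clones were measured in 9 libraries. The authors prepared non-strand-specific TruSeq libraries, used RSEM 1.2.11 with mm10 RefSeq genes and deposited 1 TPM value per gene symbol and library, with 2 decimals. The authors tested counts with DESeq2 1.8.1. Those counts were not used here, so a test for TPM was chosen. TPM keeps no depth, so reads per library and counting error are unknown. Groups and replicate numbers are from the sample labels, which name no batch. Several sorters were used and are not tied to samples. Nothing says whether replicates came from separate mice, so p-values measure the spread between these libraries. The 9 columns of values carry the sample names, and no libraries held identical values.

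log2(TPM + 1) of 11330 genes with a maximum TPM above 1 was fitted with limma 3.58.1 in R 4.3.3 (lmFit, eBayes with trend, all 9 libraries in 1 fit, Benjamini-Hochberg adjustment, threshold 0.01). The fit was tested on simulated data. Within-library ratios were compared by exact permutation in scipy 1.17.1 with Python 3.11.15, and figures were drawn with matplotlib 3.10.9. The integrin genes and gene lists were chosen with earlier results of these data known. The named genes are all 9 integrin genes, other integrins above 1 TPM, of each list the 6 largest changes past the threshold and the 2 most abundant genes, the 3 most abundant of each marker list, Klf2, Runx3, and the 3 most similar profiles of each integrin gene called in both R7-II comparisons; ligand genes not above 1 TPM were added after their values were seen. Sequences and starts are RefSeq's on GRCm38.p6, the build of mm10, and overlapping genes are from GENCODE M21. As alternatives the pseudocount, filter, scaling, variance trend and threshold were changed, only the clones of a comparison were fitted, the replicate number was used as a block, and each library was left out.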

Additional observations from a re-analysis of the deposited data

How the results depend on the processing

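With 3 libraries per clone and no read numbers, small differences between R7-III and R7-I could not be settled. A pseudocount of 0.1 or 5 moved Itgb3 to 3.06 or 0.45 against R7-I and to 2.17 or 0.39 against R7-III. Median-of-ratios factors turned Itgal (-0.17) and Itga6 (-0.11) below 0 against R7-I and Itgb1 to -0.0059 between R7-III and R7-I, and quantile scaling turned Itga6 to -0.26. With each library left out in turn, Itga6 lay between -0.042 and 0.21 and Itgal between -0.00038 and 0.038 against R7-I. Itgb7, Itgae, Itga4, Itgb3, Itgb1 and Itgav passed in the same direction in both R7-II comparisons under every alternative that tested them. The number of integrin genes called between R7-III and R7-I, 1 in the report, was 0 with a pseudocount of 5, without the filter, without the trend and with the replicate block, 2 with quantile scaling, 3 with median-of-ratios scaling or with only both clones in the fit, 4 at an adjusted p of 0.05, and 0 to 3 without 1 library. For R7-II it was 7 over R7-I and 8 over R7-III, 6 and 7 with a filter of at least 1 TPM in every library, which removes Itgb3, and 7 and 7 to 8 without 1 library. The 4 lists around the integrins had 7 calls between R7-III and R7-I, 11 with only both clones and 4 to 9 without 1 library. Without 1 library the log2 difference of R7-II was 3.24 to 3.42 for Itgb7/Itgb1, 2.56 to 2.96 for Itga4/Itgb1, 0.83 to 1.10 for Itga6/Itgb1, -0.29 to -0.20 for Itgal/Itgb2 and -4.11 to -3.46 for Itgav/Itgb3 (exact permutation test, adjusted p of 0.0571 to 0.114, not past 0.05). Each of these ratios had the smallest p that the fewer libraries allow, so the test cannot show whether a difference weakened. Itga4/Itgb7 ranged from -0.73 to -0.45, Itgav/Itgb1 from -0.15 to -0.05, and Itgae/Itgb7 from -0.29 to 0.031, the latter without R7-I replicate 3. With TPM + 1 in the ratio, Itga4/Itgb7 was at -0.81 and passed the exact permutation test (adjusted p = 0.0317). The cause was not tested. Replicate numbers do not pair the libraries: deviations of same-numbered libraries had correlations of -0.0449 to 0.0888, and 3 of 9 libraries correlated best with their own number. With the replicate block, where the smallest p is 0.0741, the ratio differences stayed at 3.31, 2.71, 0.93, -0.25 and -3.82 and did not pass; it changed the Itgb7 call between R7-III and R7-I and no other call of the 9 integrin genes, and lost those of Itga2b over R7-I (0.52), Itgam over R7-III (0.72) and Lamc1 between R7-III and R7-I (0.39).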
